A study of Sus scrofa with 27 samples.

Results

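The genes described here make and sense the vasoactive peptides of the lung vessels, or mark the capillary endothelium. They are EDN1, ECE1, EDNRA and EDNRB of the endothelin system, APLN and APLNR of the apelin system, the angiotensin-converting enzyme ACE, the carbonic anhydrase CA4 and the sialomucin EMCN. Members were taken by gene name from the count table, with at least 10 counts in at least 1 library as the condition. All 9 listed genes met it, of 31908 genes in the table. The lowest count of any member in any library was 20, for APLNR.

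The data are bulk RNA-seq profiles of lung biopsies from 9 Large-White pigs whose lungs underwent ex vivo lung perfusion (EVLP), a procedure that keeps a harvested lung ventilated and perfused outside the body. Lungs came from a non-heart-beating donor model, and every lung was perfused with Steen solution containing methylprednisolone, cefuroxime and heparin under the Toronto protocol. In the Gold Standard (GS) group, 5 lungs (pigs 9, 17, 44, 55 and 77) had part of the perfusate replaced at fixed intervals. In the Pediatric Dialysis (PD) group, 4 lungs (pigs 2, 3, 4 and 5) had a pediatric hemodialyzer on the circuit. Each lung was biopsied at 0h, after cold ischemia and before EVLP, then at 6h and 12h, which gave 27 libraries. The 0h samples are the controls of their own pigs, and there is no lung kept for 12h without EVLP. A biopsy mixes all cells of the tissue, so that fewer cells of a type and less RNA per cell cannot be told apart in any value below.

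Endothelin-1 is a constrictor peptide made mainly by endothelial cells. It is cut from a large precursor in steps, the last of which is done by the endothelin-converting enzyme ECE1. Its receptor EDNRA sits mainly on vascular smooth muscle and drives contraction, whereas endothelial EDNRB releases nitric oxide and clears the peptide from the pulmonary circulation. Apelin, from the gene APLN, signals through the receptor APLNR and generally relaxes vessels, and in the lung the pair is known for marking neighbouring capillary cell types, APLN the aerocytes that line the gas exchange surface and APLNR the general capillary cells. ACE and CA4 are enzymes on the luminal face of the lung capillaries: the former makes angiotensin II and degrades bradykinin, the latter interconverts carbon dioxide and bicarbonate.

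The coding sequences of both peptides are given because EDN1 was called in both groups, and APLN in GS at both times. They are RefSeq transcripts of the Sscrofa11.1 assembly, read 5′ to 3′. The first runs over 21 codons, residues 53 to 73 of a precursor of 203, which were taken as mature endothelin-1 by the spacing of 4 cysteines and a final tryptophan and not from an annotated peptide, with the cysteine codons in capitals. The second is simply the last 13 codons of the 77-residue apelin precursor, with the codon of the final phenylalanine in capitals.
EDN1: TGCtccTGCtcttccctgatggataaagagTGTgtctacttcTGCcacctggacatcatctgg
APLN: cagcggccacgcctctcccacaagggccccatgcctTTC

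In the Sscrofa11.1 build used for the table, EDN1 (ENSSSCG00000035598) lies at chr7:8751695-8758348 on the plus strand and ECE1 (ENSSSCG00000003513) at chr6:79408328-79466106 on the minus strand. The receptors EDNRA (ENSSSCG00000009031) and EDNRB (ENSSSCG00000009477) lie on the minus strand at chr8:81209327-81276853 and chr11:50072554-50102884. APLN (ENSSSCG00000048443) lies at chrX:106236748-106246378, minus strand, and APLNR (ENSSSCG00000038869) on the unplaced scaffold AEMK02000423.1 from 68318 to 72029, plus strand. ACE (ENSSSCG00000017296) and CA4 (ENSSSCG00000023186) share chromosome 12, at 15394487 to 15414639 and 37962943 to 37972509, both on the minus strand. EMCN (ENSSSCG00000038080) spans chr8:120138279-120230966 on the plus strand and overlaps 1 small U1 RNA gene. An ACE-like gene next to ACE held 0 to 486 counts per library, in total 0.739% of the counts of ACE. All counts are summed over whole genes, exons of all isoforms together.

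The libraries of the groups differed in depth without overlap, from 26335584 to 67522703 counts in GS (median 53623755) and from 14650700 to 21820935 in PD (median 19344265). Replicate variation was larger in PD, with a biological coefficient of variation of 0.489 against 0.259 in GS. The 12h library of PD pig 2 was the shallowest and stood apart from its group, with a mean correlation of 0.859 to the other libraries of that group, where the remaining 26 libraries reached 0.897 to 0.967. Where leaving it out changed a call against 0h of one of the 9 genes, the value without it is given too. The endothelial label of the tissue was checked with 14 pan-endothelial markers such as PECAM1, CDH5 and VWF: all 14 were detected in all libraries, and their summed level was 2083 to 4668 CPM (read counts scaled to library size) in GS and 1985 to 3874 CPM in PD. At 0h 2 of the 14 were called higher and 3 lower in PD than in GS, where 15.2% and 13.9% of all genes were. CDH5, for example, was at 753 ± 135 CPM in GS (SD, n = 5) and 226 ± 112 CPM in PD (n = 4), and CLDN5 at 84.4 ± 46.7 and 259 ± 124 CPM.

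Before EVLP, ACE, EMCN and CA4 were among the 4 most abundant members per unit of transcript length in both groups and APLN and EDNRA were the lowest, whereas ECE1 ranked high in GS alone. In the GS group at 0h, ACE stood at 65.2 ± 9.63 CPM per kb of exon (SD, n = 5), ECE1 at 54.5 ± 9.45, EMCN at 50.8 ± 7.4 and CA4 at 41.0 ± 12.9. The step from ACE to ECE1 was slightly larger than either SD, and ECE1, EMCN and CA4 followed each other within their spreads. APLNR (25.0 ± 5.7) and EDN1 (24.8 ± 7.54) came next with nearly equal means, then EDNRB (18.4 ± 3.59), EDNRA (14.7 ± 5.73) and APLN (10.3 ± 4.81), again each within the spread of its neighbour. In the PD group at 0h the order began with EMCN at 77.8 ± 24.5 CPM per kb (SD, n = 4), then ACE at 35.2 ± 5.3 and CA4 at 33.5 ± 10.5. EDNRB followed at 27.7 ± 5.45, ECE1 at 19.0 ± 5.49, EDN1 at 15.6 ± 9.09 and APLNR at 15.2 ± 4.9. APLN (8.09 ± 5.43) and EDNRA (7.29 ± 0.845) were the lowest. The steps from EMCN to ACE, from EDNRB to ECE1 and from APLNR to APLN were larger than either SD, and the other neighbours in the PD order lay within their spreads.

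**Figure D1:**
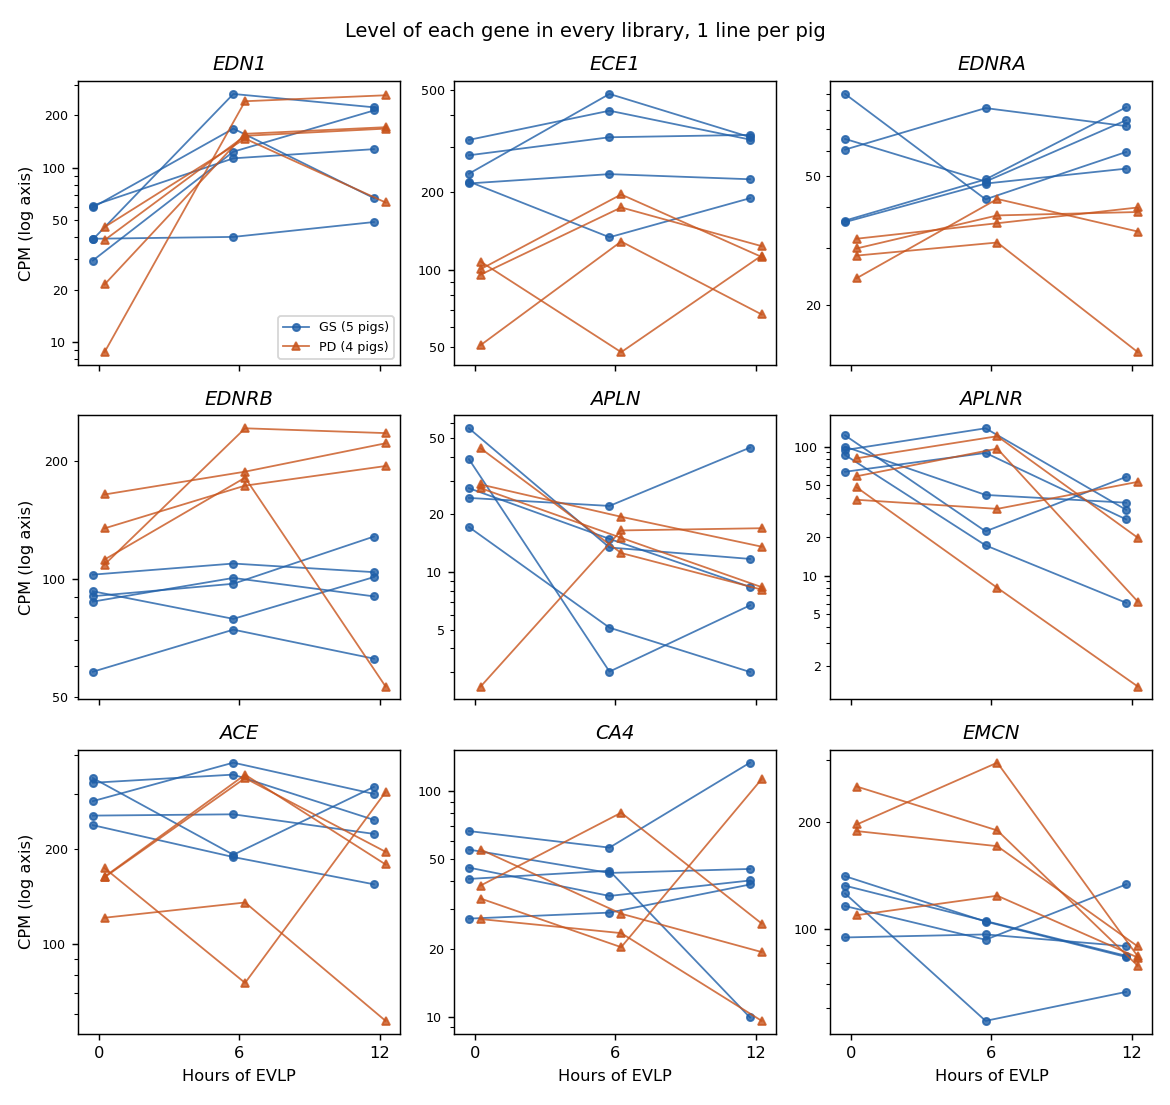
Level of the 9 genes in each of the 27 libraries, in CPM on a log axis whose range differs between panels, against hours of EVLP; each line is 1 pig, blue circles GS (5 pigs) and orange triangles PD (4 pigs), shifted slightly sideways. EDN1 lay higher at 6h and 12h than at 0h in every pig, and APLNR lay lower at 12h than at 0h in all pigs but PD pig 2.

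In the GS group, EVLP was compared with the same pig's 0h biopsy to see which of these genes changed during perfusion. EDN1 rose and APLN fell at both 6h and 12h, and APLNR fell at 12h. EMCN passed the adjusted p at 12h alone, below 2-fold. The remaining members, which are CA4, ACE, ECE1 and both endothelin receptors, did not pass the test at either time. A gene was called when the adjusted p-value of edgeR's quasi-likelihood test over all genes, with the pig as a block, was under 0.05 and the fold change at least 2. At 6h, 1 of 9 members was called higher and 1 lower, where 5.5% of the 18594 genes tested were called higher and 5.56% lower. At 12h, 1 member was called higher and 2 lower, against 6.99% and 8.66% of all genes. Both comparisons share the 0h libraries. Markers of other cell types moved as well. The summed level of 4 T cell markers was 158 to 253 CPM at 0h and 68.9 to 152 CPM at 12h. That of 5 lymphatic endothelial markers was 295 to 487 and 497 to 698 CPM. Of these 5, 1 was called higher and 2 lower at 12h. Their median log2 change was −0.93, so that most of them did not rise with the sum. Sums of the other marker lists overlapped between 0h and 12h. The part of these cells in the changes was not tested.

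EDN1, the precursor of endothelin-1, stood at 0h at 59.4, 39.2, 60.9, 38.9 and 29.4 CPM in GS pigs 9, 17, 44, 55 and 77. At 6h the same pigs gave 168, 40.2, 114, 266 and 124 CPM, and at 12h 67.2, 48.9, 128, 223 and 214 CPM. All 5 pigs were higher at both times, pig 17 only marginally (1.02-fold at 6h), and pig 17 was the 1 pig whose 6h and 12h values lay within the 0h range. The fitted log2 change was 1.36 (SE 0.38, edgeR adjusted p = 0.0191) at 6h and 1.31 (SE 0.39, adjusted p = 0.0174) at 12h. Leaving out pig 55 brought the log2 change to 1.05 (adjusted p = 0.0786) at 6h and 1.08 (adjusted p = 0.068) at 12h. It also lost the call without pig 44 at 6h (1.5, adjusted p = 0.0519) and without pig 77 at 12h (0.92, adjusted p = 0.0809). Both calls were lost without the filter on low counts (adjusted p = 0.064 and 0.0584) and in a fit of all 27 libraries (adjusted p = 0.0718 and 0.0582).

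The other parts of the endothelin system showed no such change. ECE1 stood at 217, 220, 320, 279 and 236 CPM at 0h and at 225, 190, 321, 334 and 328 CPM at 12h in the same order of pigs. EDNRA lay between 36 and 89.9 CPM at 0h and between 52.8 and 81.7 CPM at 12h. EDNRB, on endothelial cells, ranged from 58.1 to 103 CPM at 0h and from 62.7 to 128 CPM at 12h. The ranges of all 3 genes thus overlapped between the times. For these, ACE and CA4 the fitted log2 changes lay between −0.16 and 0.20 at 6h (smallest edgeR adjusted p = 0.416) and between −0.28 and 0.25 at 12h (smallest adjusted p = 0.189).

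APLN, the gene of the peptide apelin, stood at 17.2, 38.9, 27.4, 56.4 and 24.4 CPM at 0h in GS pigs 9, 17, 44, 55 and 77. At 6h these fell to 5.12, 3.02, 14.9, 13.4 and 22.2 CPM, and at 12h the values were 3.01, 6.70, 8.36, 11.7 and 44.7 CPM. All 5 pigs were lower at 6h, and 4 of 5 at 12h, when pig 77 alone was above its 0h level. The log2 change was −1.82 (SE 0.46, edgeR adjusted p = 0.0114) at 6h and −1.76 (SE 0.47, adjusted p = 0.0104) at 12h. The call at 6h was lost without pig 17 (−1.37, adjusted p = 0.0505) and that at 12h without pig 55 (−1.60, adjusted p = 0.058), and both without the pig block (−1.51, adjusted p = 0.144, and −1.17, adjusted p = 0.213).

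APLNR, the apelin receptor, stood at 86, 122, 99.8, 93.9 and 63.7 CPM at 0h and at 6.15, 58.2, 36.7, 32.3 and 27.3 CPM at 12h. Every pig was lower at 12h, to between 0.0716 and 0.477 of its 0h level, and the ranges did not overlap. The log2 change at 12h was −1.84 (SE 0.50, edgeR adjusted p = 0.0125). The call was lost without the pig block (−1.58, adjusted p = 0.0552), without the filter on low counts (−1.82, adjusted p = 0.06) and in a fit of all 27 libraries (−1.81, adjusted p = 0.0692). At 6h the pigs were split, with 17.1, 22, 42.1, 138 and 89.2 CPM, so that 3 of 5 were lower and the log2 change of −0.91 (SE 0.51, adjusted p = 0.193) did not pass.

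EMCN, a mucin-like glycoprotein of capillary and venous endothelium that limits leukocyte adhesion, stood at 132, 126, 94.6, 141 and 116 CPM at 0h. It was at 105, 55.1, 96.5, 105 and 93.2 CPM at 6h and at 84, 66.5, 89.4, 83.3 and 133 CPM at 12h. At each time 4 of 5 pigs were lower. The log2 change was −0.47 (SE 0.18, edgeR adjusted p = 0.0627) at 6h and −0.48 (SE 0.18, adjusted p = 0.0464) at 12h, the latter passing the test but below 2-fold. With the trend on GC content and exon length removed, the 12h value was −0.33 (adjusted p = 0.16) and no longer passed. ACE lay between 239 and 337 CPM at 0h and between 155 and 316 CPM at 12h. CA4 ranged from 27.3 to 66.7 CPM at 0h, and at 12h from 9.92 CPM in pig 9 to 134 CPM in pig 77, which widened its spread from an SD of 14.9 to 47 CPM without a shift of the mean beyond it.

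**Figure D2:**
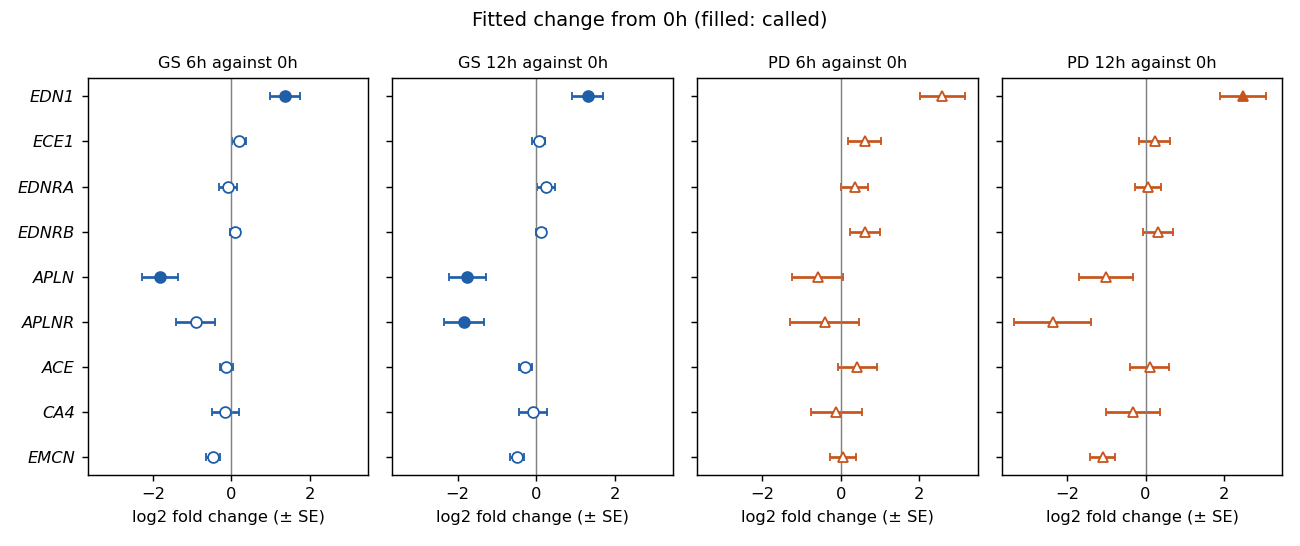
Fitted log2 fold change (x axis) with its standard error for the 9 genes in 4 panels, GS at 6h and 12h and PD at 6h and 12h, each against 0h; filled symbols were called (edgeR adjusted p under 0.05 and at least 2-fold). EDN1 is the rightmost gene in all 4 panels, and is open in PD at 6h.

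In the PD group the same comparison gave EDN1 as the 1 member that rose, at 12h. At 6h its level was also far above 0h, but the adjusted p-value missed the threshold. APLNR and EMCN were lower at 12h in 3 and 4 of 4 pigs, without passing over all genes in this fit, though both passed in some of the other fits given below. At 6h, 0 of 9 members were called by edgeR, where 0.135% of the 15545 genes tested were called higher and 0.00643% lower. EDN1 alone had an unadjusted p under 0.05 there, as had 9.41% of all genes, and DESeq2 called 1 member, also EDN1, and 2.75% of all genes. At 12h, 1 member was called higher and 0 lower, against 3.22% and 2.76% of all genes, with 3 members, EDN1, APLNR and EMCN, at an unadjusted p under 0.05, as had 24.5% of all genes. DESeq2 called these 3 there, and 16.5% of all genes. The summed level of 4 T cell markers was 113 to 197 CPM at 0h and 57.7 to 93 CPM at 12h in PD. That of 5 lymphatic endothelial markers was 343 to 522 and 680 to 1421 CPM, with 1 of them called higher and 0 lower at 12h (median log2 change 0.30). Sums of the other marker lists overlapped. Their part in the changes was not tested.

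EDN1 stood at 45.8, 38.5, 8.77 and 21.5 CPM at 0h in PD pigs 2, 3, 4 and 5. At 6h it reached 147, 153, 241 and 157 CPM, and at 12h 63.4, 168, 261 and 171 CPM. Every value at 6h and 12h lay above every value at 0h, and the ratio within a pig ran from 3.22 to 27.4 at 6h and from 1.38 to 29.7 at 12h. Pig 4, with the lowest 0h level, had the highest levels afterwards. Its 0h library was also the lowest PD library of that time in CA4, EDNRB, ECE1, ACE, APLN and EMCN, and not in EDNRA or APLNR. That library had a mean correlation of 0.897 to its group, and its part in the largest ratios was not tested. The log2 change of EDN1 was 2.59 (SE 0.58, edgeR adjusted p = 0.122) at 6h and 2.49 (SE 0.59, adjusted p = 0.035) at 12h. At 6h EDN1 was called without the pig block (2.62, adjusted p = 0.0321), without the filter on low counts (2.61, adjusted p = 0.0342), in a fit of the 0h and 6h libraries alone (2.78, adjusted p = 0.0144), in a fit of all 27 libraries (2.57, adjusted p = 0.0153), by DESeq2 (2.61, adjusted p = 0.000281), with the trend on GC content and length removed (2.61, adjusted p = 0.0299) and without pig 2 (3.04, adjusted p = 0.0345). Without pig 3, 4 or 5 it was not (adjusted p = 0.248 to 0.952). Without the 12h library of pig 2 the change at 12h was 2.95 (adjusted p = 0.00393). The call at 12h was lost when pig 3 (2.66, adjusted p = 0.219), pig 4 (1.92, adjusted p = 0.0735) or pig 5 (2.29, adjusted p = 0.307) was left out, and in a fit of the 0h and 12h libraries alone (2.60, adjusted p = 0.152).

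The enzyme and the receptors of endothelin-1 did not pass the test at either time. ECE1 stood at 108, 100.6, 51.0 and 95.8 CPM at 0h, at 47.9, 196, 129 and 175 CPM at 6h and at 114, 112, 67.1 and 124 CPM at 12h. At 6h pigs 3, 4 and 5 were at 1.82 to 2.52 times their 0h level and pig 2 was lower (log2 change 0.61, edgeR adjusted p = 0.641). EDNRA stood at 28.4, 24.2, 29.9 and 32 CPM at 0h, at 31.2, 42.5, 37.8 and 35.8 CPM at 6h and at 14.3, 33.7, 38.7 and 40 CPM at 12h. All 4 pigs were higher at 6h (0.35, adjusted p = 0.715), and pig 2 was low at 12h. EDNRB, the receptor that also clears the peptide, went from 112, 135, 109 and 164 CPM at 0h to 181, 173, 242 and 188 CPM at 6h. These ranges did not overlap, and all 4 pigs were higher, yet the log2 change of 0.61 (SE 0.38) had an edgeR adjusted p of 0.629. At 12h EDNRB was at 53.2 CPM in pig 2 and at 194 to 235 CPM in the other 3 pigs.

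APLN in PD was at 44.3, 28.7, 2.52 and 27.5 CPM at 0h, 12.6, 19.5, 16.5 and 15.1 CPM at 6h and 8.10, 13.6, 17 and 8.34 CPM at 12h. It was lower at both times in 3 of 4 pigs, and higher in pig 4, the pig whose 0h library was lowest in both APLN and EDN1. The log2 change at 12h was −1.01 (SE 0.68, edgeR adjusted p = 0.396), and it was −1.75 (adjusted p = 0.059) without pig 4 and −0.39 (adjusted p = 0.701) without pig 2.

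APLNR in PD was at 38.7, 58.9, 48.2 and 81.1 CPM at 0h and at 53.2, 6.28, 1.38 and 19.6 CPM at 12h. Pigs 3, 4 and 5 were lower and pig 2 was higher. The log2 change was −2.37 (SE 0.98, edgeR adjusted p = 0.163). It met both thresholds by DESeq2 (−2.35, adjusted p = 0.0167) and with the trend on GC content and length removed (−2.39, adjusted p = 0.0417). Leaving out pig 4 brought it to −1.23 (adjusted p = 0.432). Without the 12h library of pig 2 it was −3.56 (adjusted p = 0.00433), which met both thresholds, and the number of members called at 12h went from 1 to 3. The share of all genes called without that library is not given here, so this rise cannot be set against the whole table. The third member called was CA4, the luminal carbonic anhydrase, at 33.5, 38.2, 27.1 and 55.2 CPM at 0h and 114, 25.9, 9.58 and 19.4 CPM at 12h. Its log2 change was −0.33 (SE 0.69, adjusted p = 0.811) with that library and −1.36 (adjusted p = 0.023) without it.

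EMCN in PD was at 197, 252, 109 and 189 CPM at 0h, 294, 189, 124 and 171 CPM at 6h and 83.7, 78.7, 83 and 89.2 CPM at 12h. The 12h values were close to each other and all below the 0h values. The log2 change at 12h was −1.10 (SE 0.33, edgeR adjusted p = 0.0686), and −0.98 (adjusted p = 0.0407) without the 12h library of pig 2. It was called without the pig block (−1.15, adjusted p = 0.0404), by DESeq2 (−1.05, adjusted p = 0.0144), in a fit of all 27 libraries (−1.09, adjusted p = 0.00511) and without pig 2 (−1.07, adjusted p = 0.0308), and not without pig 3, 4 or 5 (adjusted p = 0.0952 to 0.417). ACE lay between 121 and 174 CPM at 0h and between 57.1 and 304 CPM at 12h. For CA4, ACE, ECE1 and both receptors together, the fitted log2 changes lay between −0.12 and 0.61 at 6h (smallest adjusted p = 0.629) and between −0.33 and 0.32 at 12h (smallest adjusted p = 0.66).

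Between 6h and 12h no member, and no other gene, was called by the edgeR fit within either group. In GS, 0 of 9 members had an unadjusted p under 0.05, against 4.75% of all genes. In PD, against 10% of all genes, this held for 1, EMCN, with a log2 difference of −1.15 (edgeR adjusted p = 0.392). DESeq2 called EMCN here (−1.12, adjusted p = 0.0492) and 1.58% of all genes. An edgeR fit of all 27 libraries also called EMCN in PD (−1.14, adjusted p = 0.0254).

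**Figure D3:**
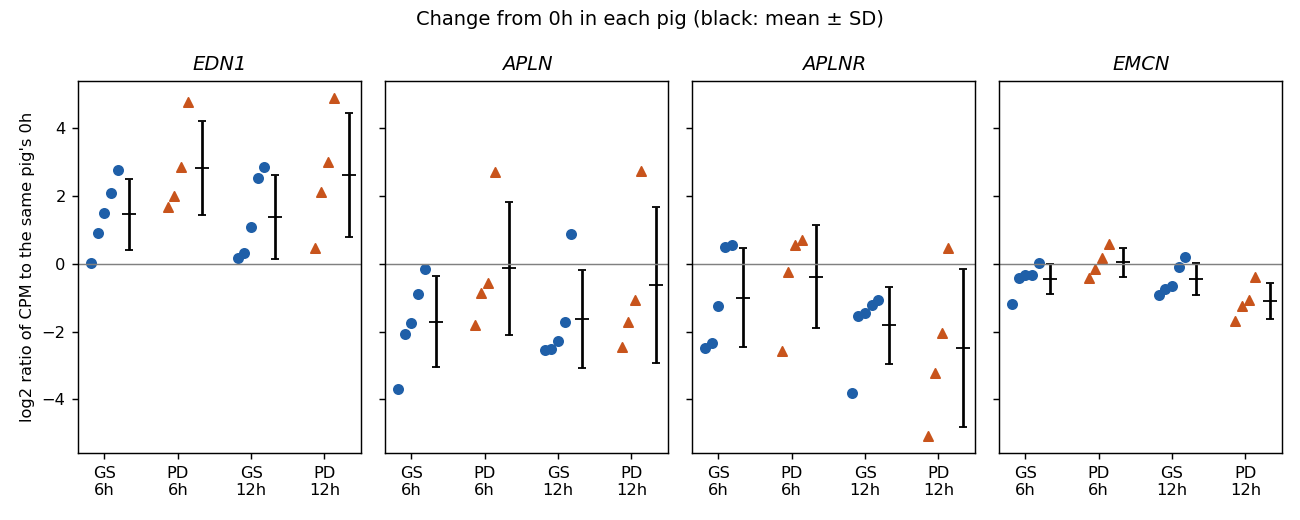
log2 ratio of CPM to the 0h biopsy of the same pig for EDN1, APLN, APLNR and EMCN, at 6h and 12h in GS (blue circles, 5 pigs) and PD (orange triangles, 4 pigs); black marks give the mean ± SD. GS and PD ratios overlap for each gene at each time.

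Whether dialysis altered these changes was asked by comparing the ratios to 0h between PD and GS pigs. None of the 9 members passed a test of the difference. The exact two-sided Wilcoxon test on rlog ratios gave 0 of 9 members with p under 0.05 at 6h and 0 of 9 at 12h, where 5.94% and 3.95% of the 17884 genes tested had such a p and none passed adjustment. With 5 against 4 pigs the smallest p the test can give is 0.0159. The edgeR interaction of group and time likewise gave 0 of 9 members at an unadjusted p under 0.05 at each time, against 5.85% and 5.98% of all genes.

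For EDN1 the interaction estimate, PD change minus GS change, was 1.20 at 6h, with an approximate 95% interval from −0.18 to 2.57. At 12h it was 1.14, with an interval from −0.27 to 2.54. These intervals include both no difference and a more than 4-fold larger ratio in PD. The exact Wilcoxon p was 0.286 at both times. For APLN the estimate at 6h was 1.20 (−0.44 to 2.83), and for APLNR −0.51 (−2.61 to 1.58) at 12h. The smallest exact p-values were 0.111, for EDNRB at 6h (interaction estimate 0.49, −0.23 to 1.21) and for EMCN at 12h (−0.64, −1.31 to 0.03). EMCN at 12h reached an exact p of 0.0357 when PD pig 4 was left out.

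Levels were also compared between the groups at each time, since differences were present before the circuits diverged. At 0h the PD lungs, which had not yet been dialyzed, carried less ECE1, EDNRA, ACE and APLNR transcript and more EDNRB and EMCN than the GS lungs. These 6 passed the adjusted p, as did 40.6% of all genes, and of them ECE1 alone exceeded 2-fold. Markers of some other cell types also separated the groups at 0h without overlap. The summed level was 0.355 to 10.3 CPM in GS and 51.3 to 236 CPM in PD for 2 red blood cell markers, 121 to 369 and 600 to 1223 CPM for 3 neutrophil markers, of which 2 were called higher and 1 lower in PD, and 7355 to 9879 and 26342 to 77557 CPM for 5 alveolar type 2 markers, of which 1 was called higher and 1 lower. It was 123 to 214 and 217 to 438 CPM for 5 venous endothelial markers, of which 3 were called higher in PD, and 1014 to 2116 and 475 to 779 CPM for 7 general capillary markers, which include APLNR. The sums of pan-endothelial, aerocyte, arterial, lymphatic, smooth muscle, fibroblast, alveolar type 1, macrophage, T cell and airway markers overlapped between the groups. Those of macrophages, for example, were 2182 to 4277 CPM in GS and 1872 to 2224 CPM in PD. The part of any of these cell types in the differences of the 9 genes was not tested. At 0h, 0 members were called higher and 1 lower in PD, against 15.2% and 13.9% of 16477 genes. At 6h 2 were called higher and 0 lower (11.1% and 10% of all genes), and at 12h 0 higher and 2 lower (10.2% and 9.14%). These shares show how common group differences were across the table. Group, depth and any handling that went with it cannot be told apart here.

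ECE1, which activates endothelin-1, was at 217 to 320 CPM in GS and at 51 to 108 CPM in PD at 0h, with no overlap (log2 difference −1.48, SE 0.24, edgeR adjusted p = 0.000587). At 6h the ranges were 134 to 482 and 47.9 to 196 CPM and overlapped (−1.23, adjusted p = 0.054), and at 12h 190 to 334 and 67.1 to 124 CPM (−1.41, adjusted p = 0.00922). The 6h difference was called without the filter on low counts (−1.27, adjusted p = 0.0418), by DESeq2 (−1.21, adjusted p = 0.0212) and without GS pig 17 (−1.41, adjusted p = 0.0222). EDNRA, the constrictor receptor, was lower in PD at 0h (36 to 89.9 against 24.2 to 32 CPM, −0.96, adjusted p = 0.0148) and at 12h (52.8 to 81.7 against 14.3 to 40 CPM, −1.10, adjusted p = 0.0407). At 6h EDNRA was at 42.4 to 81.3 against 31.2 to 42.5 CPM (−0.56, adjusted p = 0.143). The difference at 12h lost the call when any single pig was left out, and was −0.86 (adjusted p = 0.0241) without PD pig 2. Beside EDNRA, the summed level of 5 pericyte markers at 0h was 247 to 534 CPM in GS and 144 to 218 CPM in PD, and that of 6 smooth muscle markers 1561 to 2745 and 581 to 2368 CPM. All 11 markers were measured, and their part in the EDNRA difference was not tested.

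EDNRB was higher in PD at 0h (58.1 to 103 against 109 to 164 CPM, log2 difference 0.63, edgeR adjusted p = 0.0271) and at 6h (74.3 to 109 against 173 to 242 CPM, 1.08, adjusted p = 0.00744), without overlap at either time. At 12h the difference was 0.86 (adjusted p = 0.141), and 1.16 (adjusted p = 0.00655) without PD pig 2. EMCN was higher in PD at 0h (0.66, adjusted p = 0.0411) and at 6h (1.09, adjusted p = 0.0212), when its ranges of 55.1 to 105 and 124 to 294 CPM did not overlap. At 6h the EMCN call was lost without GS pig 17 (0.96, below 2-fold), GS pig 77 (1.07, adjusted p = 0.0526) or PD pig 2 (0.83, adjusted p = 0.0719), and that of EDNRB without PD pig 4 (0.97, below 2-fold). At 0h the adjusted p of EMCN was 0.0514 to 0.14 without any 1 pig other than PD pig 4. ACE was lower in PD at 0h, at 121 to 174 against 239 to 337 CPM (−0.85, adjusted p = 0.00448), and overlapped afterwards. APLNR was lower at 0h with overlapping ranges (−0.67, adjusted p = 0.0473). EDN1, APLN and CA4 did not pass this test at any time, with log2 differences between −0.63 and 0.43.

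**Figure D4:**
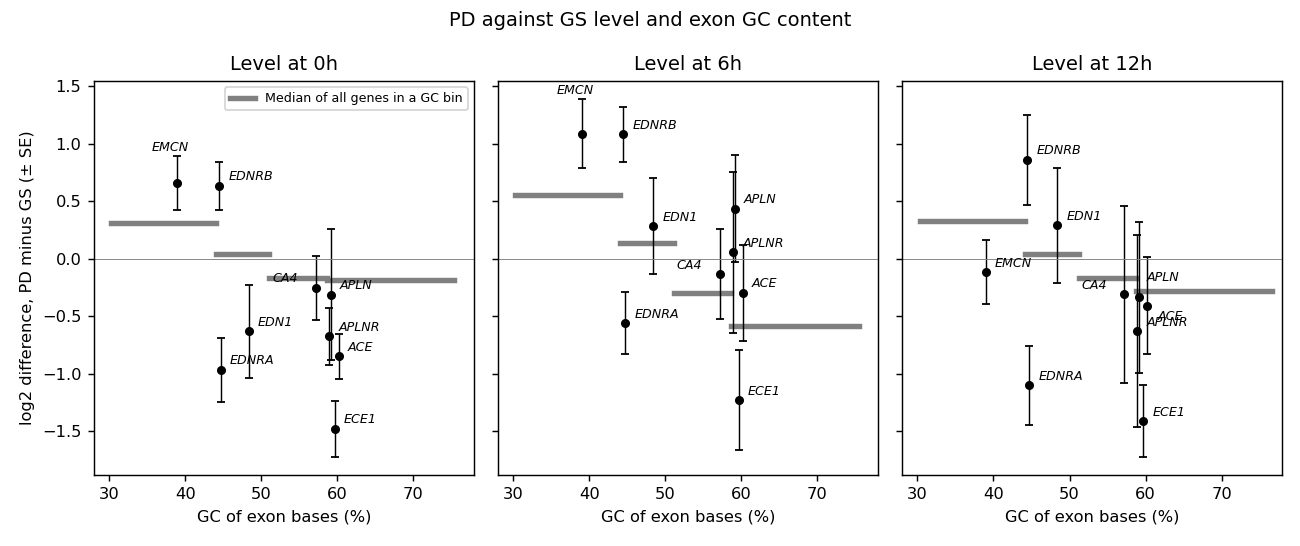
log2 difference in level, PD minus GS, with its standard error for the 9 genes (points) against the GC content of their exon bases, at 0h, 6h and 12h; grey bars are the median difference of all tested genes in each of 4 equal-sized bins of GC content. The bars step down from left to right at each time, and EMCN and EDNRB lie at low GC, ACE and ECE1 at high GC.

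The group difference moved with base composition over the whole table. At 0h the median log2 difference, PD minus GS, was 0.31 in the lowest of 4 equal-sized bins of exon GC content and −0.18 in the highest bin, and at 6h 0.55 and −0.58. EMCN has the lowest exon GC content of the members (39%), followed by EDNRB (44.5%) and EDNRA (44.7%), and ACE (60.2%) and ECE1 (59.7%) have the highest. With the trend on GC content and exon length removed from each library, EMCN no longer passed the test at 0h (−0.10, edgeR adjusted p = 0.633) or 6h (0.05, adjusted p = 0.915), nor did ACE (−0.27, adjusted p = 0.287) or APLNR (−0.26, adjusted p = 0.446) at 0h. ECE1 was below 2-fold at 0h (−0.85, adjusted p = 0.0104) and 12h (−0.72, adjusted p = 0.0336). EDNRB at 6h was below 2-fold as well (0.79, adjusted p = 0.0336), so that no member was called at 6h, and at 0h it still passed the adjusted p (0.63, adjusted p = 0.0442). EDNRA had −1.02 (adjusted p = 0.0166) at 0h, −0.83 (adjusted p = 0.027) at 6h and −1.28 (adjusted p = 0.00413) at 12h, and EDN1 (−1.18, adjusted p = 0.0293) and CA4 (−0.88, adjusted p = 0.0152, below 2-fold) then passed at 0h.

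The 9 genes can be set beside other genes of their pathways, from lists of names. Over all genes, 5.5% were called higher and 5.56% lower in GS at 6h, and 6.99% and 8.66% at 12h. In PD these shares were 0.135% and 0.00643% at 6h, and 3.22% and 2.76% at 12h. Of the other renin-angiotensin and kinin genes, 11 of 16 were tested in GS, and 3 were called higher and 0 lower at 6h. These were AGTR1, the angiotensin II receptor that constricts vessels (log2 change 1.0, edgeR adjusted p = 0.00936), and the bradykinin receptors BDKRB1 (1.84, adjusted p = 0.0234) and BDKRB2 (1.34, adjusted p = 0.0159). AGTR1 was called again at 12h (1.34, adjusted p = 0.00132). Its call in GS at 6h was lost in a fit of all 27 libraries (1.02, adjusted p = 0.118). Without pig 9 (0.92) or pig 17 (0.80) the 6h change was below 2-fold. None of the 11 was called in PD with all libraries, where AGTR1 had log2 changes of 0.95 (adjusted p = 0.613) and 1.37 (adjusted p = 0.173). At 12h in PD AGTR1 met both thresholds without the 12h library of pig 2 (1.92, adjusted p = 0.00391), in a fit of all 27 libraries (1.38, adjusted p = 0.0402) and with the trend on GC content and length removed (1.24, adjusted p = 0.0289). The median log2 change of this list in GS was −0.15 at 6h, against −0.05 over all genes. BDKRB1 and BDKRB2 were named after their values were seen. The BDKRB1 call was lost without the pig block (adjusted p = 0.0771), in a fit of the 0h and 6h libraries alone (0.0618) and in a fit of all 27 libraries (0.153). Leaving out pig 44, 55 or 77 also ended it (adjusted p = 0.0856 to 0.107). The BDKRB2 call was lost without pig 44 (adjusted p = 0.0929) or pig 77 (0.0842).

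Among 5 tested genes of the adrenomedullin and calcitonin receptor system, ADM, which encodes the dilator peptide adrenomedullin, rose in GS by 1.74 (edgeR adjusted p = 0.000598) at 6h and 2.40 (adjusted p = 7.14e-05) at 12h on the log2 scale. In PD it rose by 3.48 (adjusted p = 0.0136) at 12h, after 2.23 (adjusted p = 0.0827) at 6h. ADM lost the call at 12h in PD in a fit of the 0h and 12h libraries alone (3.50, adjusted p = 0.106). At 6h in PD it was called without the filter on low counts (adjusted p = 0.0132), in fits of the 0h and 6h libraries alone (adjusted p = 0.0158) and of all 27 libraries (adjusted p = 0.00242), by DESeq2 (adjusted p = 9.59e-05) and with the trend on GC content and length removed (adjusted p = 0.00855). Its mean level went from 23.5 ± 10.7 to 125 ± 44.2 CPM in GS (SD, n = 5) and from 27.8 ± 20.5 to 277 ± 97.2 CPM in PD (n = 4). The other 4, CALCRL and RAMP1 to RAMP3 of its receptor, were not called in any comparison with 0h. Of 7 tested natriuretic peptide genes, NPPC, encoding the endothelial C-type natriuretic peptide, was called in GS at 6h (1.91, adjusted p = 0.002) and 12h (1.93, adjusted p = 0.00106), at mean levels under 1 CPM. NPPB was called in PD at 12h (3.33, adjusted p = 0.0252), and was named after its value was seen. Of the other endothelin genes, MME alone was tested and was not called, and EDN2 and ECEL1 were too low to be tested.

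Other vasoactive peptides and receptors counted 7 tested genes of 15 listed, with 1 called higher in GS at 6h and 2 at 12h, and 2 in PD at 12h. Of all genes, 5.5%, 6.99% and 3.22% were called higher in these comparisons, and 5.56%, 8.66% and 2.76% lower. OXTR, the oxytocin receptor, was called in each of them (1.53, 1.92 and 2.61, edgeR adjusted p = 0.0431, 0.01 and 0.0316). Its call in GS at 6h was lost without pig 9, 17, 44 or 77 (adjusted p = 0.0758 to 0.179). That call was lost as well without the pig block (adjusted p = 0.0706), without the filter on low counts (0.064) and in a fit of all 27 libraries (0.0624). The other called genes of this list, NPY in GS (1.83, adjusted p = 0.0102) and ADCYAP1R1 in PD (1.88, adjusted p = 0.031), were named after their values were seen. Of 8 genes of endothelin-linked signaling, RGS4, a brake on signaling by Gq-coupled receptors, fell in GS by 1.18 (adjusted p = 0.00226) at 6h and by 1.72 (adjusted p = 0.000193) at 12h on the log2 scale. None was called in PD. Of the other carbonic anhydrases, 6 of 11 were tested in GS and 0 called, whereas PD at 12h had 1 called higher, CA12 (3.06, adjusted p = 0.0149), and 1 lower, CA8 (−1.65, adjusted p = 0.0364), both named after their values were seen. Of 8 tested genes of sialomucins and the endothelial surface, 1 was called in any comparison with 0h, PODXL2 at 12h in GS (−1.08, adjusted p = 0.0213), likewise named afterwards.

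The lists of endothelial markers did not move together. None of the 14 pan-endothelial markers was called in any comparison with 0h except KDR, a VEGF receptor, which fell at 6h in GS (−1.15, edgeR adjusted p = 0.00115, named after its value was seen). KDR lost this call in a fit of all 27 libraries (−1.13, edgeR adjusted p = 0.105) and, at −0.95, was below 2-fold without pig 17. The median log2 change of the pan-endothelial list lay between 0.04 and 0.31 in the 4 comparisons. Of 10 aerocyte capillary markers, which include APLN, EDNRB and CA4, 1 was called higher and 3 lower in GS at both 6h and 12h, with a list median of −0.63 and −0.41. Of all genes, 5.5% were called higher and 5.56% lower in GS at 6h, and 6.99% and 8.66% at 12h. The medians over all genes were −0.05 and −0.08. SOSTDC1, a secreted BMP antagonist, fell with APLN at both times (−2.47, adjusted p = 0.0196, and −2.98, adjusted p = 0.00586), FIBIN fell at 6h (−1.33, adjusted p = 0.02, named after its value was seen), and HPGD, which degrades prostaglandins, fell in GS at 12h (−1.35, adjusted p = 0.000148) and in PD at 12h (−2.09, adjusted p = 0.0182). At 6h SOSTDC1 lost the call without the pig block (edgeR adjusted p = 0.0618), the filter (0.0758), pig 9 (0.0509) or pig 17 (0.102). A fit of the 0h and 6h libraries alone also lost it (adjusted p = 0.0516). FIBIN lost its call without the block (adjusted p = 0.117), the filter (0.075), pig 44 (0.0884) or pig 77 (0.0818), and in a fit of all 27 libraries (0.0593). S100A3 rose in GS (4.10, adjusted p = 0.00225, and 4.83, adjusted p = 0.000436). EDNRB, CA4 and PRX of the same list were not called at any time, and CA4 and EDNRB had log2 changes between −0.16 and 0.13 in GS. Of 7 general capillary markers, which include APLNR, that gene alone was called, at 12h in GS, and PLVAP, CD36, GPIHBP1 and IL7R had log2 changes there of −0.27 to −0.01. Of 8 arterial markers, 1 was called higher and 1 lower in GS at 6h, and 1 and 2 at 12h. These counts were 0 and 1, then 1 and 0, for 5 venous markers. For 5 lymphatic markers they were 1 and 1, then 1 and 2. Markers of larger vessels moved in both directions in GS: GJA4, an arterial connexin, rose (1.38, adjusted p = 0.00248, at 6h and 1.26, adjusted p = 0.00243, at 12h) and HEY1, an arterial Notch target, fell (−1.19, adjusted p = 0.0315, and −1.08, adjusted p = 0.037). HEY1 lost its 12h call without pig 9, 17, 44 or 55 (adjusted p = 0.0504 to 0.148). That call was also lost without the pig block, without the filter, in a fit of the 0h and 12h libraries alone and in a fit of all 27 (adjusted p = 0.0567 to 0.106). The 6h call was lost without the block, without the filter and in the fit of all 27 (adjusted p = 0.05002 to 0.0763). Of the calls named for genes outside the 9, 11 of 25 in GS were lost when some single pig was left out, HEY1 at 6h without pigs 9, 17 or 44 among them (adjusted p = 0.0597 to 0.122). All 7 in PD at 12h were lost without pig 3 and likewise without pig 5, with ADM at 3.43 (adjusted p = 0.104) and 3.28 (adjusted p = 0.246). In a fit of the 0h and 12h libraries alone, CA12 (adjusted p = 0.106), NPPB, ADCYAP1R1, CA8 and HPGD (each 0.11) lost the call, as did ADM.

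The genes whose pattern was most like that of a called member were found by Pearson's r of log2 CPM, centred within each pig, over the 27 libraries. This is a description in which the points share pigs and library depth. EDN1 was followed most closely by TIFA, an adaptor of NF-kB signaling (r = 0.970), the transcription factor gene MYC (r = 0.952) and the kinase gene SGK1 (r = 0.949). APLN was followed by the beta-1 adrenergic receptor gene ADRB1 (r = 0.840), FRAS1 (r = 0.834) and the ryanodine receptor gene RYR3 (r = 0.834). APLNR was followed by the peptidase gene PRCP (r = 0.933), BMERB1 (r = 0.923) and KIF26A (r = 0.922). Among the members themselves the highest values were those of ECE1 with ACE (r = 0.750), EDN1 with EDNRB (r = 0.678) and CA4 with ACE (r = 0.607). EDN1 and APLN had r = −0.02, and APLN and APLNR r = 0.20.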

How the data were processed

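The data were RNA-seq counts per gene in 27 libraries of pig lung biopsies. The authors deposited raw counts per Ensembl gene, with no normalization: per their methods and processing notes, reads of stranded mRNA libraries were trimmed with cutadapt 1.15, aligned with TopHat2 2.0.14 to Sscrofa11.1 and counted with featureCounts of Subread 1.6.0. The strand setting of the counting and the handling of multi-mapping reads are not given in the sources used here, nor is the extraction kit of each sample, of which 2 were used.

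Changes from 0h were fitted within each group with edgeR 4.0.16 (R 4.3.3, limma 3.58.1; TMM, filterByExpr, robust quasi-likelihood F test), with the pig as a block, since the 3 biopsies of a pig come from 1 lung. Residuals of libraries from the same pig correlated on average at r 0.513 in GS and 0.112 in PD. Benjamini-Hochberg adjustment covered all genes tested. A gene was called at an adjusted p under 0.05 and at least 2-fold. PD and GS ratios (rlog of DESeq2 1.42.0) were compared by Wilcoxon rank sums over all possible splits of the pigs, two-sided, and levels by edgeR at each time. CPM use TMM-scaled library sizes, and log2 ratios a prior count of 0.5. CPM per kb divides by the RefSeq exon bases. No 2 libraries agreed within sampling noise. Fits were tested on simulated data.

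The text names all 9 members, the 3 genes most correlated with each called member, and list genes called in at least 2 of the 4 comparisons with 0h. Genes outside this rule are marked, or are uncalled list genes and markers (CDH5 and CLDN5 among them) named after their values were seen. The members and lists were chosen with earlier results of these data known. Symbols came from the table for 16719 genes, from the reference names for 782, and were absent for 14407. Alternatives tried were no block, other fits, DESeq2, other scaling, no filter, no fold threshold and leaving out each pig. Removing the GC and length trend, and leaving out the 12h library of PD pig 2, were added after seeing the data.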

Additional observations from a re-analysis of the deposited data

Results flagged for a closer look

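Dixon's test was applied to 90 groups of 4 or 5 values (levels and ratios of the 9 genes). Of independent, normally distributed groups it flags about 1 in 20, here 4.5. Levels are CPM without a log, and levels and ratios share values, so that number is only a rough guide. In 11 groups 1 value lay far from the rest. GS pig 77 gave 4 of them at 12h: CA4 at 134 CPM (others 9.92 to 45.3), APLN at 44.7 CPM (others 3.01 to 11.7), the APLN log2 ratio to 0h at 0.87 (others −2.54 to −1.71) and the EDNRB log2 ratio at 0.50 (others 0.02 to 0.12). PD pig 2 gave 2 at 12h, in the library that stands apart: CA4 at 114 CPM (others 9.58 to 25.9) and the EDNRA log2 ratio at −0.99 (others 0.32 to 0.48). The other 5 came from 4 pigs. CA4 at 6h was 80.5 CPM in PD pig 3 (others 20.4 to 28.7) and EDN1 at 6h 241 CPM in PD pig 4 (others 147 to 157). EDNRA at 6h was 81.3 CPM in GS pig 9 (others 42.4 to 48.9), and EMCN at 6h 55.1 CPM in GS pig 17 (others 93.2 to 105). The APLNR log2 ratio at 12h was −3.80 in GS pig 9 (others −1.54 to −1.07).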

How the results depend on the processing

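Directions of the results given one by one changed in few cases, and calls in more. For these alternatives, calls over all genes are given only for DESeq2 in PD, the trend removed in PD and in levels, and no fold threshold at 0h. Under the other settings the counts of members cannot be set against the whole table, and are not read as particular to these genes. Without the pig block, the number of members called was 1 in GS at 6h, 1 in GS at 12h, 1 in PD at 6h and 2 in PD at 12h, against 2, 3, 0 and 1 with it, and the pairing of biopsies by animal moved no other count by over 1.5 times. Without a filter on low counts the same 4 counts were 1, 1, 1 and 1, and levels at 0h and 12h gave 2 and 1 members against 1 and 2. With all 27 libraries in 1 fit they were 1, 1, 1 and 2, and EMCN was called in PD between 12h and 6h (1 against 0). In PD, DESeq2 called 1 member at 6h, 3 at 12h and 1 between 12h and 6h, and a fit of only the 2 times compared called 1 at 6h and 0 at 12h. The trend on GC and length removed gave 1 and 2 members in PD at 6h and 12h, and 2, 0 and 1 for levels at 0h, 6h and 12h, where over all genes it called 210 and 2555 in PD, against 22 and 930, and 3306, 1600 and 2551 for levels, against 4793, 3418 and 3179. Without the 12h library of PD pig 2, 3 members were called in PD at 12h. With no fold threshold, 6 members differed in level at 0h, as did 40.6% of all genes. Leaving out each pig gave 1 to 2 members in GS at 6h, 1 to 3 in GS at 12h, 0 to 1 in PD at 6h, 0 to 4 in PD at 12h (4 without pig 2, 0 without pig 3, 4 or 5), 0 to 1 for the change at 12h, and 1 to 2 for levels at each time. Reversals of sign concerned uncalled values: APLNR in PD at 6h was 0.19 without the block, and −0.99 to 0.52 over pigs left out; EMCN in PD at 6h was −0.16 with the trend removed and −0.16 to 0.21 over pigs left out; CA4 in PD at 12h was 0.14 without the block and −1.28 to 0.15 over pigs left out; the EMCN level at 0h was −0.10 with the trend removed; the PD minus GS difference of APLNR rlog ratios at 12h, −0.13, was −0.68 to 0.23 over pigs left out. The causes were not tested. Of 554 alternative values of the member results given one by one, 471 kept direction and side of the threshold. Another 57 member results, none of them called, are given only as ranges or not at all, and 70 of their 751 alternative values changed sign while none was called. Of 411 alternative values of the 20 other genes named with their calls, 324 kept direction and side of the threshold, 78 lost the call and 0 changed sign. Depth limits APLN and APLNR most, with 44 and 20 counts in their lowest libraries. Counts of 3 are worth at most 0.324 CPM in PD.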
